A study of Mus musculus with 13 samples.

Results

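The genes described here serve the endoplasmic reticulum (ER) and the start of the secretory pathway. They were taken by name, with earlier results of these data known. All 37 genes were in the deposited table of 18748 genes, and all had enough counts to be tested (14067 genes were). They fall into 15 chaperones and folding enzymes, 10 stress sensors, transcription factors and degradation genes, and 12 genes of protein entry into the ER, of the COPII coat and of retrieval from the Golgi. The libraries hold messenger RNA of the cartilage on the mandibular condyle, the jaw side of the temporomandibular joint. They came from 7 samples of young mice (2 months) and 6 of aged mice (18 months), and no treatment or genetic change is named for either age. The labels number the samples without saying whether each is a separate animal, so p-values measure the spread between these libraries. The strain and sex are not given in the sources used here.

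Secreted proteins enter the ER through the Sec61 channel while they are being made, and are folded there with the help of chaperones such as BiP and of enzymes that form disulphide bonds. Folded cargo leaves in vesicles coated by COPII, which cartilage and bone cells need in an enlarged form for the long procollagen rods, and escaped ER proteins are carried back by KDEL receptors. When unfolded proteins build up, 3 sensors in the ER membrane (ATF6, IRE1 and PERK) start the unfolded protein response, which raises chaperones through ATF6 and XBP1 and the factors ATF4 and CHOP through PERK. The related membrane-bound factors CREB3L1 (OASIS) and CREB3L2 (BBF2H7) are known for secretion genes in bone and cartilage cells.

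Promoters of some of these genes carry the letters through which that response is known to act, and 7 are shown so that these can be seen. Promoter windows from 250 bases before to 50 bases after the start were available from RefSeq (build GRCm38.p6) for 30 of the 37 genes, and not for Hyou1, Manf, Atf6, Creb3l1, Sec61a1, Lman1 and Kdelr2. Exact matches were sought on both strands for the ER stress element (CCAAT, 9 bases of any kind, then CCACG), its second form (ATTGG, 1 base of any kind, then CCACG), the core of the unfolded protein response element (TGACGTGG) and the amino acid response element core (TTGCATCA). The former 3 share the letters CCACG on either strand. Capitals mark the matches, sequences run 5′ to 3′ on the gene's strand, and the last base shown is the one given below for each gene.
Hspa5 (chr2:34771990-34772089, plus strand, to 1 base before the start): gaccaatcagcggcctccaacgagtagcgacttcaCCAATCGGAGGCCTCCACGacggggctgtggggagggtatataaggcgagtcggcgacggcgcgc
Hsp90b1 (chr10:86705525-86705664, minus strand, to 81 bases before the start): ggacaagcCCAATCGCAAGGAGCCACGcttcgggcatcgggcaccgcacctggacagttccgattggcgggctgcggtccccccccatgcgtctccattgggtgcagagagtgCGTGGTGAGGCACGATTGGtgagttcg
Canx (chr11:50325734-50325833, minus strand, to 61 bases before the start): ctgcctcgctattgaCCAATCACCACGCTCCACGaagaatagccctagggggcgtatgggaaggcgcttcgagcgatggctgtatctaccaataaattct
Pdia6 (chr12:17266469-17266568, plus strand, to 21 bases before the start): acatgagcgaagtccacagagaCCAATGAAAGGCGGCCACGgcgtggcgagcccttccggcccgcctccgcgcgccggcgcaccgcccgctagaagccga
Herpud1 (chr8:94386304-94386403, plus strand, to 26 bases before the start): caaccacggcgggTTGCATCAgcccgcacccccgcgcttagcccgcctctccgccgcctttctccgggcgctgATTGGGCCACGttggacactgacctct
Sec24d (chr3:123267396-123267495, plus strand, to 1 base before the start): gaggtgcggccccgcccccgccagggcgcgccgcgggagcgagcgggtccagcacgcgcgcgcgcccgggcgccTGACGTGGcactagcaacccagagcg
Kdelr3 (chr15:79516308-79516407, plus strand, to 1 base before the start): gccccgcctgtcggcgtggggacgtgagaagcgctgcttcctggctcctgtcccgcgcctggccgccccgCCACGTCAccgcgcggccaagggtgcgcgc

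The ER stress element was present in 7 of the 13 chaperones with a window (Hspa5, Hsp90b1 with 2 copies, Calr, Canx, Pdia6, Dnajc3 and Creld2), in none of the 8 stress genes and in none of the 9 export genes. Of all 27025 genes with a window, 0.137% held it. Its second form was in Dnajb11 and Herpud1 (0.0444% of all genes), and Herpud1 also held the amino acid response core (1.03% of all genes). The core of the unfolded protein response element was in Sec23a, Sec24d and Kdelr3 (0.714% of all genes). A match describes the letters of these windows only.

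All 12 genes of the export machinery were called lower in aged cartilage, while 21.6% of all tested genes were called lower and 24.7% higher. A call means an adjusted p under 0.05 in edgeR's quasi-likelihood test, fitted and adjusted over all tested genes (46.2% of them were called in either direction). Levels are CPM, counts scaled to library size with TMM factors. Changes are log2 fold changes of aged over young, and the value after ± is then the SE. The 12 had a median change of -0.56, beside 0.014 over all tested genes. In 9 of the 12 every aged library lay below every young one, against 10.9% of all tested genes. Summed over the 12, the level ranged from 2428 to 2849 CPM in young and from 1513 to 1938 CPM in aged libraries. Sums over all tested genes were also lower in aged (865730 to 957520 CPM) than in young libraries (1044400 to 1107700 CPM), since TMM factors were higher in aged ones. The ratio of mean sums, aged over young, was 0.664 for the 12 and 0.853 for all tested genes. The ratio for all tested genes is set by the TMM factors alone. Summed levels given below, when read against it, are judged by library size, while changes of single genes are on the TMM scale. Fewer of the other genes were called: of 15 chaperones 6 were lower and 1 higher (1 and 3 with library sizes alone), and of 10 stress genes 3 were lower and 2 higher (1 and 5 with library sizes alone). With library sizes alone 8.91% of all tested genes were called lower and 50% higher, so the higher counts of that scaling, here and below, are to be read against that share. In all, 12 of the 37 genes had no overlap between the ages, each of them lower in aged libraries, where 19.2% of tested genes had no overlap and 8.28% had all aged libraries above the young.

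**Figure D1:**
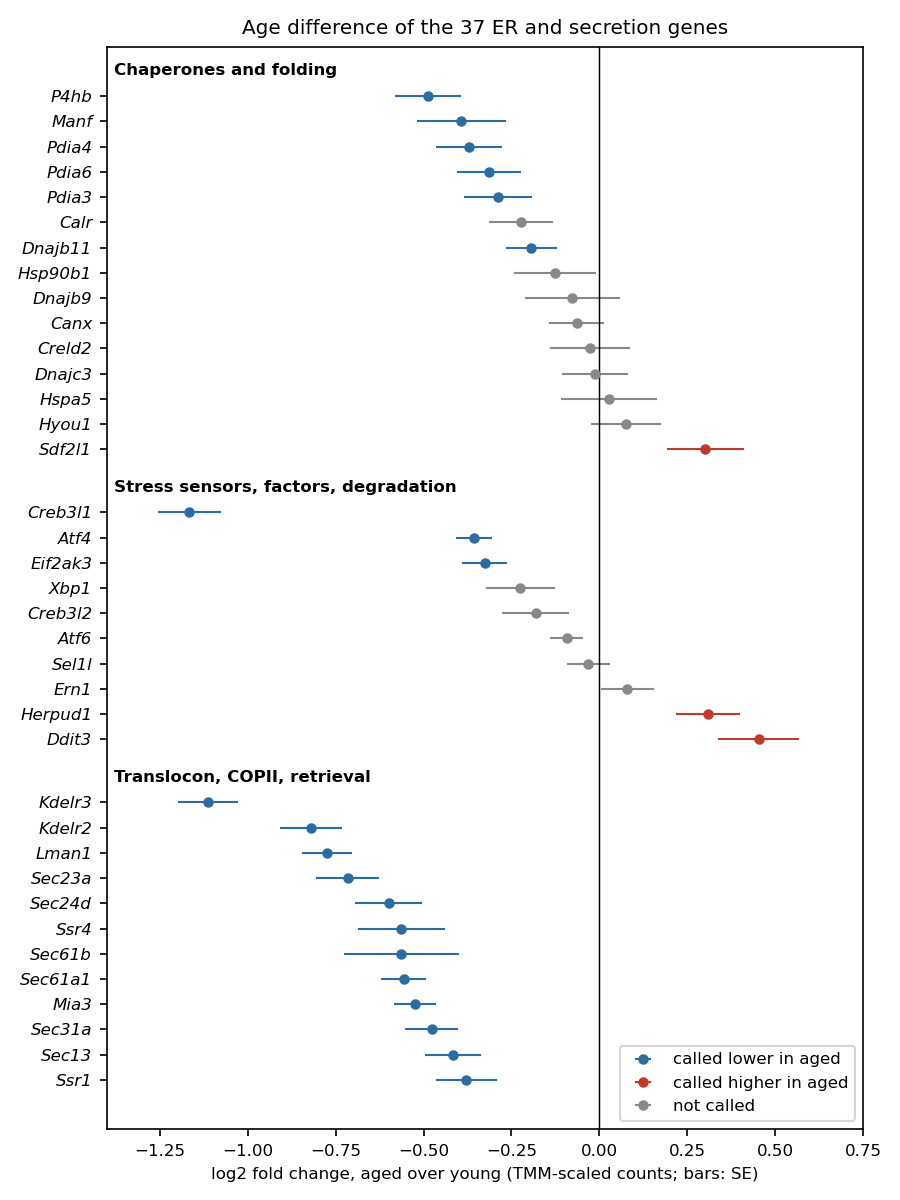
Log2 fold change, aged over young, of the 37 genes in 3 blocks by role (points, edgeR on TMM-scaled counts; bars, SE; blue, called lower; red, called higher; grey, not called). All 12 export genes lie between -1.11 and -0.38, while chaperones lie on both sides of 0, where 7 of 15 change sign with library sizes alone.

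These falls were seen beside changes in the RNA of marker genes of several cell types. In bulk RNA, fewer cells of a type and less RNA per cell cannot be told apart. All 8 chondrocyte markers checked were detected, Col2a1, the main cartilage collagen, at a mean of 25340 CPM in young (SD 5038, n = 7) and 6836 CPM in aged libraries (SD 3143, n = 6). Of these 8, 4 were called lower and 2 higher (Comp at 1.02 and Ucma at 1.18), and Acan (-0.06) and Sox9 (0.11) were not called. Of 10 osteoblast and osteocyte markers 7 were lower and 1 higher, with summed levels from 14496 to 18967 CPM in young and from 9548 to 16111 CPM in aged libraries. Of 8 osteoclast markers 7 were lower (6392 to 8160 CPM in young, 2569 to 4576 CPM in aged). All 10 erythroid markers were higher (31.5 to 227 CPM in young, 474 to 1771 CPM in aged), as were 9 of 10 neutrophil markers (573 to 1832 and 1192 to 5629 CPM) and 10 of 12 skeletal muscle markers (607 to 5918 and 4909 to 18415 CPM). Of 8 fibroblast and tendon markers 2 were lower, 2 higher and 4 not called (6587 to 8585 CPM in young, 8199 to 13321 CPM in aged). No marker of these lists had a mean of 0 at either age. The part of the chondrocyte, bone cell and fibroblast markers in the results was not tested. That of the muscle and blood markers was tested only through fits that held a marker score of each library as a covariate, given below. The scores follow age (r = 0.757 for muscle, 0.89 for erythroid and neutrophil markers). Such fits therefore separate age and score poorly, and a call can be lost with no smaller change.

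Scaling matters for small changes. With library sizes alone, in place of TMM factors, all tested genes together had a median change of 0.24 rather than 0.014, and in limma on the authors' FPKM, as log2(FPKM + 1), it was 0.18, with 9.54% of genes called lower and 45% higher. On these 2 scales 10 and 12 of the export genes were still lower and none was higher, at medians of -0.33 and -0.43.

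Retrieval receptors and the cargo receptor had the largest falls of the export group. Kdelr3 (gene ID 105785), a receptor that returns ER proteins bearing the KDEL tail from the Golgi, ranged from 125.2 to 161 CPM in the young libraries (median 144) and from 56.6 to 74.7 CPM in the aged (median 69.3). The ages were far apart, with the highest aged library at a level well below the lowest young one. Its log2 change was -1.11 ± 0.09 (adjusted p = 4.52e-07), and it stood at -1.10 given the muscle score, -1.33 given a blood score (erythroid and neutrophil markers) as a covariate. Kdelr2 (gene ID 66913), a second receptor of that family, ranged from 209 to 265 CPM (median 236) in young and from 109 to 157 CPM (median 136) in aged libraries, a log2 change of -0.82 ± 0.09 (adjusted p = 7.38e-06). Lman1 (gene ID 70361), a lectin that carries glycoproteins out of the ER, ranged from 241 to 286 CPM (median 255) in young and from 133 to 177 CPM (median 149) in aged libraries. Its log2 change was -0.78 ± 0.07 (adjusted p = 1.86e-06). Neither gene overlapped between the ages.

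The COPII coat genes among the 37 fell in the inner and in the outer layer. Sec23a (gene ID 20334), the inner-coat subunit whose loss disturbs craniofacial cartilage and bone, ranged from 129 to 150 CPM (median 133) in young and from 68.4 to 105 CPM (median 81.4) in aged libraries. In log2 this was -0.72 ± 0.09 (adjusted p = 2.47e-05). Sec24d, the inner-coat subunit that picks cargo, had a young mean of 247 ± 21.0 CPM (SD, n = 7) and an aged mean of 163 ± 25.2 CPM (SD, n = 6) (log2 change -0.60 ± 0.09, adjusted p = 0.000181). Both windows held the unfolded protein response element core, as did that of Kdelr3. Of the 105 other tested genes with that core 36 were called lower and 23 higher, at a median of -0.088. Over all tested genes 21.6% were lower and 24.7% higher. For the outer coat, Sec31a and Sec13 had log2 fold changes of -0.48 ± 0.08 and -0.42 ± 0.08, and Mia3 (TANGO1), which gathers procollagen at the exit site, had -0.52 ± 0.06. None of these 5 genes overlapped between the ages. With the blood score Sec24d, Sec31a and Sec13 kept their direction but were not called (adjusted p = 0.0705, 0.124 and 0.17). Sec13 was not called with the muscle score either (adjusted p = 0.0612).

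Genes of protein entry into the ER fell as well, though with more spread. Sec61a1, the pore of the channel, had a young mean of 383 ± 22.0 CPM (SD, n = 7) and an aged one of 260.1 ± 20.2 CPM (SD, n = 6), with no overlap (log2 change -0.56 ± 0.06, adjusted p = 1.19e-05). Sec61b, a small channel subunit, ranged from 36.6 to 60.1 CPM in young and from 22.3 to 43.8 CPM in aged libraries, so that 2 of the 6 aged libraries were within the young range. It had a log2 change of -0.56 ± 0.16 (adjusted p = 0.0119). Ssr1 and Ssr4, subunits of the translocon-associated complex, had -0.38 ± 0.09 and -0.56 ± 0.12, with 5 of 6 aged libraries below all young ones for each. Ssr1 and Sec61b were not called with library sizes alone (adjusted p = 0.104 and 0.0943).

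The 12 falls kept their direction under each of the 24 alternatives, and 6 of them (Kdelr3, Kdelr2, Lman1, Sec23a, Sec61a1 and Mia3) were called in each. With the muscle score as a covariate 8 of the 12 were called, and with the blood score 6, while the medians were -0.56 and -0.64. Over all tested genes calls became fewer under these scores too, to 12.4% and 6.53% lower and 14.1% and 8.35% higher. Leaving out any of the 13 libraries left all 12 called.

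**Figure D2:**
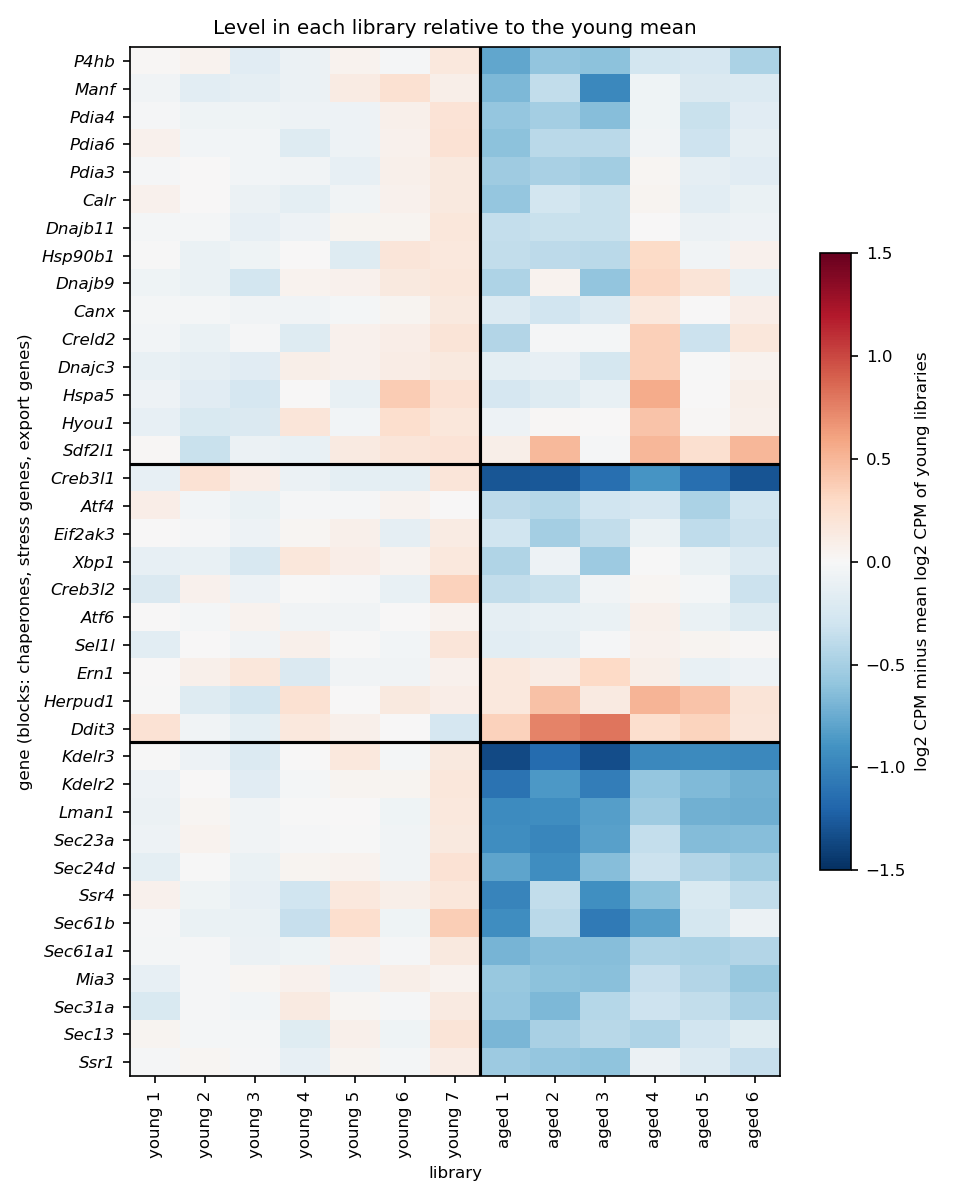
Level of each gene in each library as log2 CPM minus the mean log2 CPM of the young libraries (columns: 7 young, then 6 aged; rows: the 37 genes in 3 blocks). The export block is blue in nearly all aged columns, and in the chaperone block the aged replicate 4 column is the reddest of the aged ones, with the highest aged value for 13 of 15 genes.

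Among the chaperones the 4 protein disulphide isomerases were called lower with TMM, P4hb alone of them also with library sizes alone, and the best known stress-induced chaperones were not called. P4hb (gene ID 18453), a disulphide isomerase that is also a subunit of collagen prolyl hydroxylase, ranged from 989 to 1241 CPM (median 1127) in young and from 652 to 939 CPM (median 771) in aged libraries. It was the only chaperone with no overlap between the ages. Its log2 change was -0.49 ± 0.09 (adjusted p = 0.000758), -0.51 with the blood score (adjusted p = 0.115) and -0.54 with the muscle score (adjusted p = 0.0171). Pdia4 and Pdia6, further isomerases, had log2 fold changes of -0.37 ± 0.09 and -0.31 ± 0.09 (adjusted p = 0.00527 and 0.0117). Pdia4 ranged from 152 to 185 CPM (median 153) in young and from 103 to 153 CPM (median 119) in aged libraries, and Pdia6 from 204 to 271 CPM (median 227) and from 152 to 225 CPM (median 182).

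Pdia3, the isomerase that works with calnexin and calreticulin, had -0.29 ± 0.10 (adjusted p = 0.0249). Without young replicate 7 or aged replicate 2 its adjusted p was 0.0501 to 0.0519. Manf, a small secreted ER stress protein, ranged from 79.4 to 104 CPM (median 85.4) in young and from 45.5 to 84.9 CPM (median 72.6) in aged libraries (log2 change -0.39 ± 0.13, adjusted p = 0.0207). Dnajb11, a co-chaperone of BiP, had -0.19 ± 0.07 (adjusted p = 0.0402). That call was lost without any of 8 of the libraries (young replicates 1, 2, 5, 6 and 7 and aged replicates 1, 2 and 3; adjusted p from 0.0527 to 0.0838), and the value was 0.036 with library sizes alone.

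Hspa5 (gene ID 14828), which encodes BiP, the main ER chaperone and a common readout of ER stress, showed no called change. It ranged from 421 to 653 CPM (median 476) in young and from 419.7 to 737 CPM (median 483) in aged libraries. The ranges overlap almost fully. In log2 it changed by 0.026 ± 0.14 (adjusted p = 0.891), with 2 SE on either side reaching from -0.25 to 0.30, and it was -0.11 without aged replicate 4 and 0.25 with library sizes alone (adjusted p = 0.0943). Hsp90b1, Canx, Calr, Dnajb9, Dnajc3, Hyou1 and Creld2 were not called either, at values from -0.22 (Calr) to 0.075 (Hyou1), though Hyou1 and Dnajc3 were called higher with library sizes alone (0.30 and 0.22, adjusted p = 0.0112 and 0.0456). Calr, the ER lectin calreticulin, was close to the threshold (adjusted p = 0.06) and was called without aged replicate 4 or aged replicate 6 (-0.29 to -0.25, adjusted p = 0.0159 to 0.0483).

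Sdf2l1, a partner of BiP complexes and the least abundant of the 15 per length in young libraries, was the only chaperone called higher. Its values were 11.7 to 17.1 CPM (median 14.96) in young and 14.6 to 20.8 CPM (median 19.1) in aged libraries, with 4 of 6 aged libraries above all young ones. The log2 change was 0.30 ± 0.11 (adjusted p = 0.0375). The call was lost without any of 7 of the libraries (young replicates 1 to 4 and aged replicates 2, 4 and 6, adjusted p from 0.0561 to 0.0882). With the blood score the value was 0.023 (adjusted p = 0.96), and with the muscle score 0.48 (adjusted p = 0.0489).

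As a group the chaperones had a median of -0.13, which turned to 0.10 with library sizes alone and 0.065 in limma on log2(FPKM + 1). The split of 6 lower and 1 higher became 1 and 3 with library sizes alone and 1 and 2 in limma on FPKM, P4hb being the gene that stayed lower in both. With the muscle score 1 was lower and 1 higher, and with the blood score none was called, at medians of -0.14 and -0.29. Of the 7 chaperones with an ER stress element in the window, 1 (Pdia6) was called lower and 0 higher. Of the 13 other tested genes with the element 4 were lower and 3 higher, beside 21.6% and 24.7% of all tested genes.

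Within each age the chaperones tended to be high or low in the same libraries. Among aged libraries, replicate 4 had the highest value for 13 of the 15 chaperones, 8 of the 10 stress genes and 7 of the 12 export genes, and replicate 1 the lowest for 8, 2 and 6. The summed chaperone level was 5000 CPM in aged replicate 4 and from 3334 to 4296 CPM in the other aged libraries, against 4307 to 5239 CPM in young ones. The ratio of mean sums, aged over young, was 0.855 for the chaperones, beside 0.853 for all tested genes. As changes of single genes on the TMM scale, the medians were -0.13 for the chaperones and 0.014 for all tested genes. In the young libraries replicate 7 was highest for 11 of 15 chaperones, 3 of 10 stress genes and 9 of 12 export genes. How often these libraries were highest or lowest over all tested genes was not counted. Of the aged TMM factors, that of replicate 4 was the lowest (1.04) and that of replicate 1 the highest (1.16). A higher factor lowers CPM, and the part of scaling in these ranks was not tested. The median coefficient of variation of the 15 was 9.04% in young and 15.8% in aged libraries, close to that of all tested genes (10.01% and 15.3%).

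**Figure D3:**
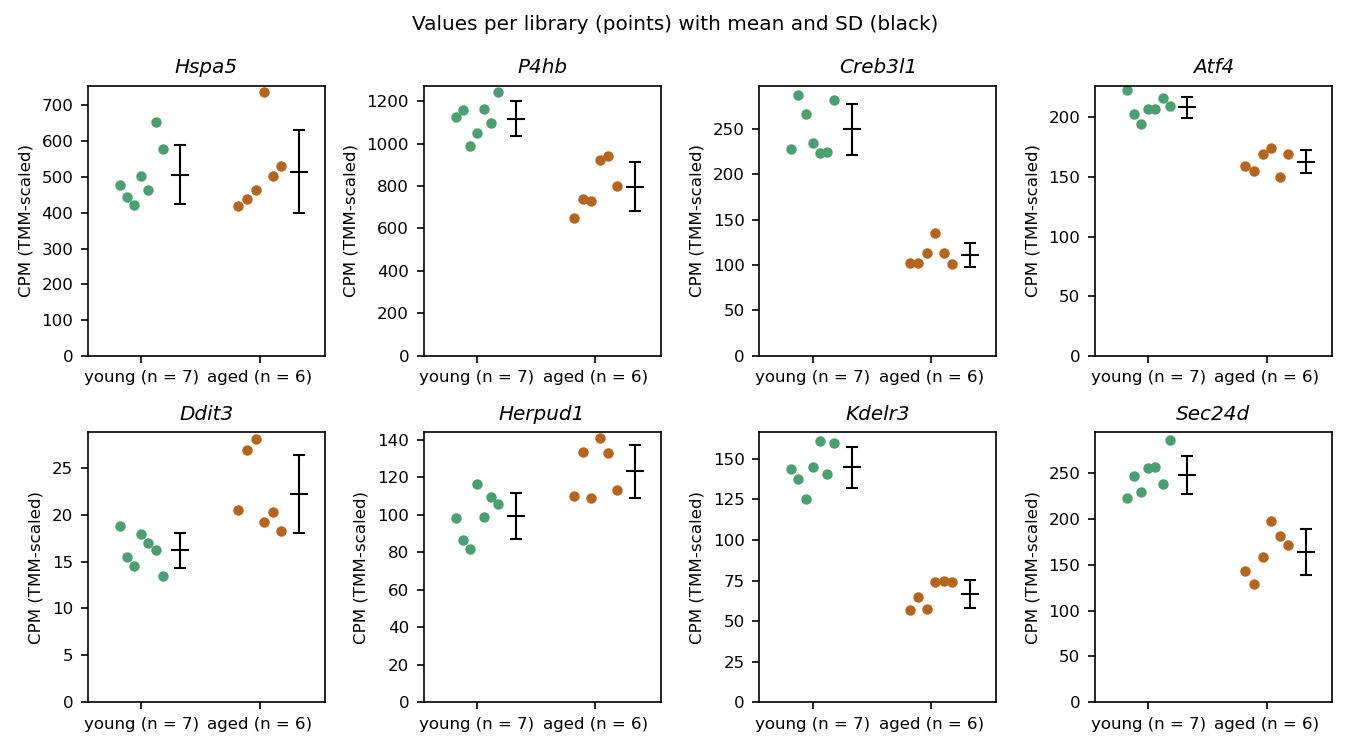
CPM in each library (points; green, 7 young; brown, 6 aged; black, mean and SD) of 8 of the genes, with axes from 0. P4hb, Creb3l1, Atf4, Kdelr3 and Sec24d do not overlap between the ages, Hspa5 overlaps almost fully with aged replicate 4 highest at 737 CPM, and Ddit3 and Herpud1 are shifted upwards.

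Among the stress sensors, only the PERK gene was called. Eif2ak3 (gene ID 13666), which encodes PERK, ranged from 76.0 to 91.0 CPM (median 83.5) in young and from 58.6 to 77.8 CPM (median 65.8) in aged libraries, with 5 of 6 aged libraries below all young ones. Its log2 change was -0.33 ± 0.06 (adjusted p = 0.000948), -0.097 with library sizes alone (adjusted p = 0.197) and -0.27 with the muscle score (adjusted p = 0.0596). With the blood score it was -0.44 (adjusted p = 0.0484). Ern1, which encodes the sensor and nuclease IRE1, ranged from 46.2 to 60.2 CPM (median 53.7) in young and from 49.6 to 65.7 CPM (median 57.3) in aged libraries. At 0.080 ± 0.07 it was not called with TMM (adjusted p = 0.406), but it was with library sizes alone (0.31, adjusted p = 0.00341). Atf6, the sensor cleaved in the Golgi, ranged from 82.2 to 88.7 CPM (median 85.5) in young and from 74.7 to 89.6 CPM (median 79.0) in aged libraries. Aged replicate 4 alone was above the young range and the other 5 were below it. Its value of -0.093 ± 0.05 (adjusted p = 0.123) was -0.13 without that library (adjusted p = 0.0193), and turned to 0.14 with library sizes alone (adjusted p = 0.018).

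Of the factors downstream of the sensors, Atf4 and Ddit3 differed in opposite directions. Atf4 (gene ID 11911), translated when PERK or related kinases act, ranged from 195 to 222 CPM (median 206) in young and from 149.7 to 174 CPM (median 164) in aged libraries, with no overlap. Its log2 change was -0.36 ± 0.05 (adjusted p = 9.63e-05), and -0.13 with library sizes alone (adjusted p = 0.0538). Ddit3 (gene ID 13198), which encodes CHOP, a factor of the late stress response, ranged from 13.5 to 18.7 CPM (median 16.2) in young and from 18.24 to 28.0 CPM (median 20.4) in aged libraries. Of the aged libraries 5 of 6 were above all young ones, and replicates 2 and 3 were highest. In log2 it changed by 0.45 ± 0.11 (adjusted p = 0.00517), 0.24 (adjusted p = 0.335) once the muscle score was a covariate, 0.58 (adjusted p = 0.114) for the blood score. Much of the control of ATF4 and XBP1 is by translation, splicing and cleavage, which gene-level counts do not measure.

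Xbp1, whose spliced form drives ER expansion, ranged from 146 to 194 CPM (median 179) in young and from 119 to 172 CPM (median 156) in aged libraries. It was not called (log2 change -0.22 ± 0.10, adjusted p = 0.0764). Without young replicate 3 or aged replicate 4 it was called, at -0.28 to -0.26 (adjusted p = 0.0355 to 0.0458), while with library sizes alone the value was 0.0050.

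Creb3l1 (gene ID 26427), the OASIS factor known for its part in bone collagen production, was among the most changed of the 37 genes, with Kdelr3. It ranged from 223 to 288 CPM (median 234) in young and from 101 to 135 CPM (median 108) in aged libraries. No library was between 135 and 223 CPM. The log2 change was -1.17 ± 0.09 (adjusted p = 4.54e-07). It was called under each of the 24 alternatives, at -1.24 given the muscle score, -0.86 given the blood score. Its relative Creb3l2, known for Sec23a control in chondrocytes, had a young mean of 78.7 ± 10.2 CPM (SD, n = 7) and an aged mean of 69.4 ± 8.73 CPM (SD, n = 6) and was not called (-0.18 ± 0.09, adjusted p = 0.131; 0.047 with library sizes alone).

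Herpud1 and Sel1l act in ER-associated degradation, which draws misfolded proteins back into the cytosol. Herpud1 (gene ID 64209), a stress-induced part of that machinery with 2 of the searched elements in its promoter window, ranged from 81.7 to 116 CPM (median 99.0) in young and from 109 to 141 CPM (median 123) in aged libraries. The ages overlapped, with 3 of 6 aged libraries above all young ones. Its log2 change was 0.31 ± 0.09 (adjusted p = 0.0129), 0.20 (adjusted p = 0.334) once the muscle score was a covariate, 0.14 (adjusted p = 0.67) for the blood score. Sel1l, the scaffold of the degradation ligase, was not called (-0.032 ± 0.06, adjusted p = 0.697), but with library sizes alone it was at 0.198 (adjusted p = 0.00472). The stress genes together thus had 3 lower and 2 higher with TMM, 1 lower and 5 higher with library sizes alone, and 2 lower and 5 higher in limma on log2(FPKM + 1). Those 5 higher compare with 50% of all tested genes called higher with library sizes alone and 45% in limma. Their median was -0.14, 0.092 and 0.073 in turn.

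Compared per gene length, P4hb and Calr were the most abundant of the 37 in young cartilage, at 410.4 ± 25.8 and 409 ± 24.4 FPKM (SD, n = 7), which do not differ beyond their spread. Next came Hsp90b1 (235 ± 20.4 FPKM), Hspa5 (212 ± 32.1), Pdia3 (203 ± 9.67) and Sec61b (198 ± 27.7), each within the spread of its neighbour. Of the stress genes Atf4 was highest (147 ± 9.51 FPKM), followed by Creb3l1 (119 ± 11.6), and Ern1 lowest of all 37 (8.54 ± 0.756). In aged libraries Creb3l1 stood at 61.3 ± 5.77 FPKM (SD, n = 6), below Xbp1 at 83.4 ± 11.9 FPKM and Herpud1 at 81.6 ± 9.08 FPKM. In young libraries it was above both (Xbp1 84.5 ± 8.95 and Herpud1 57.3 ± 7.31 FPKM).

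Other genes of the same pathways were then counted from lists that hold none of the 37. These lists too were chosen with earlier results of these data known, so their counts are no independent check. Over all tested genes, 21.6% were called lower and 24.7% higher with TMM. Of 90 tested genes of entry, COPII and COPI, 61 were lower and 2 higher with TMM, at a median of -0.30 (31 and 18 with library sizes alone, 33 and 13 in limma on FPKM). The translocon, signal peptidase and oligosaccharyltransferase list had 20 of 32 lower and none higher (9 and 4 with library sizes alone). Ostc, a subunit of the glycosylation complex, had a young mean of 123 ± 11.9 CPM (SD, n = 7) and an aged one of 60.9 ± 14.1 CPM (SD, n = 6), a log2 change of -1.02 ± 0.13 (adjusted p = 3.82e-05). Ssr2 and Ssr3, partners of Ssr1 and Ssr4, had -0.82 ± 0.07 and -0.75 ± 0.09.

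In the COPII and ER-to-Golgi list 27 of 40 were lower and 2 higher (15 and 11 with library sizes alone). Sec16b, a scaffold of exit sites, the fusion protein gene Bet1 and the coat gene Sec24a had -0.77, -0.73 and -0.64. The outer-coat paralogue Sec31b went the other way, with a young mean of 2.89 ± 0.866 CPM (SD, n = 7) and an aged one of 8.04 ± 2.85 CPM (SD, n = 6), at 1.47 ± 0.25 (adjusted p = 0.000317). With the muscle score it was at 0.70 (adjusted p = 0.0763), and with the blood score at 1.98 (adjusted p = 0.0205). COPI, the coat of the return route, had 14 of 18 lower and none higher (7 and 3 with library sizes alone), with Copz2 at -0.74, Arf4 at -0.73 and Arfgap1 at -0.60.

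**Figure D4:**
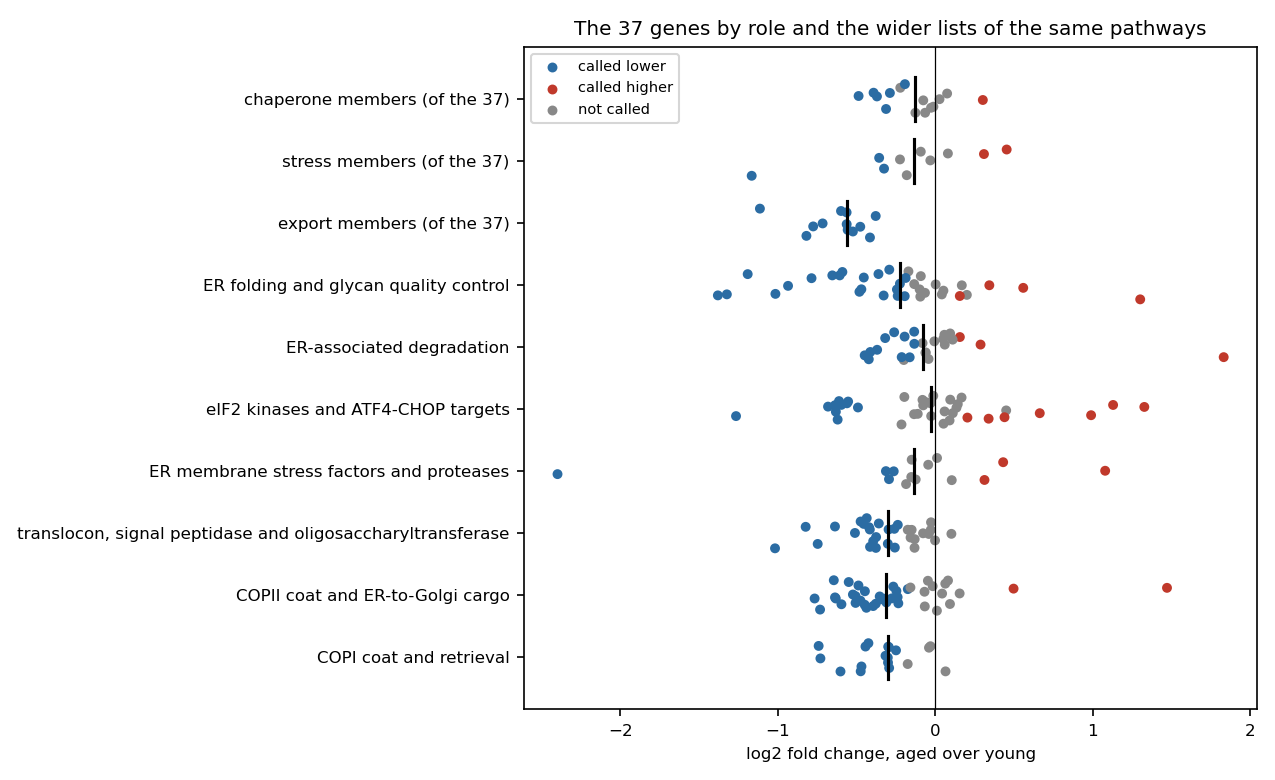
Log2 fold change, aged over young, of each tested gene (points; blue, called lower; red, called higher; grey, not called; black bar, median) for the 3 roles of the 37 genes and the 7 wider lists. With TMM the medians of the 3 wider export lists are -0.30, -0.31 and -0.30; counts of higher genes in these lists grow with library sizes alone.

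Several folding genes outside the 37 fell by more than any chaperone among them. Of 35 tested folding and glycan genes 20 were lower and 4 higher (12 and 10 with library sizes alone). Rcn1, a calcium-binding protein of the ER, had a young mean of 246 ± 12.4 CPM (SD, n = 7) and an aged one of 94.3 ± 10.4 CPM (SD, n = 6), a log2 change of -1.381 ± 0.07 (adjusted p = 2.82e-08). Fkbp11, a prolyl isomerase, and Qsox1, which forms disulphide bonds, had -1.32 ± 0.14 and -1.19 ± 0.09. Cdnf, the relative of Manf, rose by 1.3005 ± 0.18 (adjusted p = 6.19e-05) from 3.09 to 7.63 CPM, while Manf fell. It was at 0.69 with the muscle score.

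In ER-associated degradation 11 of 25 genes were lower and 3 higher with TMM, beside 21.6% and 24.7% of all tested genes. With library sizes alone 1 was lower and 11 were higher, where 50% of all tested genes were called higher. Selenos, which helps to recruit the extracting ATPase, Edem1, which trims mannose, and the lectin Erlec1 had -0.45, -0.42 and -0.41, and Derl3 1.83 ± 0.37 (adjusted p = 0.00117) at low levels, 0.617 CPM in young and 2.21 CPM in aged libraries. Derl3 is abundant in plasma cells. In the plasma and B cell marker list, which holds it, Jchain was also higher (2.1005 ± 0.29) and Pax5 lower, the other 6 tested markers, Mzb1 among them, were not called, and the summed level ranged from 153 to 293 CPM in young and from 66.8 to 320.2 CPM in aged libraries. Their part in the Derl3 value was not tested.

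The eIF2 kinase and ATF4-CHOP target list had members in both directions, 10 of 37 lower and 7 higher (8 and 17 with library sizes alone), at a median of -0.030. These counts, and those of the membrane factors below, are to be read against the shares of all tested genes. With TMM 21.6% were lower and 24.7% higher, and with library sizes alone 8.91% and 50%. The falls included enzymes of proline and serine synthesis: Pycr1 had a young mean of 72.0 ± 6.62 CPM (SD, n = 7) and an aged one of 30.0 ± 4.32 CPM (SD, n = 6; -1.27 ± 0.09, adjusted p = 3.88e-07), and Phgdh and Psat1 had -0.68 and -0.64. Ppp1r15a, which encodes the phosphatase subunit that ends eIF2 phosphorylation, was the largest rise, from 31.9 ± 3.71 to 80.0 ± 23.1 CPM (1.33 ± 0.16, adjusted p = 2.23e-05). With the blood score it was at 0.295 (adjusted p = 0.346), and with the muscle score at 1.63 (adjusted p = 0.000122). Among the other ER membrane factors and proteases 4 of 14 were lower and 3 higher (1 and 5 with library sizes alone). Creb3l3, a relative of Creb3l1, went from 12.3 ± 1.92 to 2.34 ± 0.650 CPM (-2.40 ± 0.18, adjusted p = 4.52e-07), Creb3 and Mbtps2, a protease that frees such factors, had -0.29 and -0.31, and Wfs1, an ER calcium protein, 1.08 (0.41 with the muscle score, adjusted p = 0.203).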

How the data were processed

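Each gene has an expected count, an FPKM and a TPM for each library in the table that the authors deposited, per the file headers; 5.3% of the counts were not whole, and TPM was not used. The submitters' processing notes name build GRCm39 and the tools RSEM 1.3.1, HISAT2 2.1.0, DESeq2 1.4.5 and Bowtie2 2.3.4.3, with no role or order. Which annotation was used is not stated there. Libraries were poly(A)-selected and strand-specific, per the labels' protocols. Totals were 17531694 to 18203443 counts in young and 16356839 to 17876681 in aged libraries, and the 37 genes had 185 to 20310 counts in any library. No 2 libraries of the same age agreed within counting noise (smallest chi-square per degree of freedom 9.87), and pairs across ages were not compared.

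Rounded counts entered edgeR 4.0.16 (R 4.3.3; filterByExpr with minimum count 10 and total 15, TMM, robust quasi-likelihood, Benjamini-Hochberg over 14067 genes, threshold 0.05). The SE is the log2 fold change divided by the square root of F. Marker scores are means of log2 CPM (prior count 2). Alternatives were other filters and scalings, DESeq2 1.42.0, limma 3.58.1 on log2(FPKM + 1) and log2(FPKM + 0.1), covariates, a replicate block and each library left out. The replicate block fit did not hold young replicate 7. The fit was tested on simulated counts of 14067 genes for this comparison, with 50 genes changed per size. It found 82% of those changed 1.5-fold, 98% for 2-fold, 96% for 4-fold and 100% for 8-fold, and 4.08% of its calls were wrong. Equal numbers of genes were raised and lowered, and no scaling shift between the ages was simulated. In the real data 46.2% of genes were called and TMM factors differed by age, so these rates do not cover errors of scaling.

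The 37 genes and the lists were chosen with earlier results of these data known. By the naming rule, values in every library were summarised for the called genes with the 4 largest falls and 2 largest rises in each role and for Hspa5, Atf6, Ern1, Eif2ak3, Xbp1, Atf4 and Ddit3. From each wider list the 3 largest called changes in the direction of most calls and 1 in the other were named. Figures were drawn with matplotlib 3.10.9.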

Additional observations from a re-analysis of the deposited data

Results flagged for a closer look

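For the 37 genes and the 26 named genes of the wider lists, 126 sets of values (each gene in each age) were searched for a library far from the rest by Dixon's test, which picks out about 1 set in 20 by chance, and 9 were found. Aged replicate 4 was the highest for 3 of them: Hspa5 at 737 CPM (next 529.6), Hyou1 at 149 CPM (next 117) and Atf6 at 89.6 CPM (next 79.7). Without it their log2 fold changes were -0.11, -0.0077 and -0.13. Young replicate 7 was the highest for Canx (325 CPM, next 299.9) and Lman1 (286 CPM, next 259.8). Of the wider lists, Derl3 stood out in aged replicate 2 (5.39 CPM, next 2.20), Sec16b in aged replicate 3 (70.8 CPM, next 50.9), Ppp1r15a in young replicate 5 (39.5 CPM, next 32.2) and Mbtps2, as the lowest, in young replicate 1 (19.1 CPM, next 21.8).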

How the results depend on the processing

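The 12 export falls kept their direction and were called 10 to 12 times of 12 under every alternative but the muscle score (8) and the erythroid and neutrophil score (6). In the same 2 score fits the chaperones had 1 and 0 lower and 1 and 0 higher (reported 6 and 1), the stress genes 2 and 3 lower and 0 and 0 higher (reported 3 and 2), the wider folding genes 15 and 15 lower and 4 and 1 higher (reported 31 and 7), the wider stress genes 9 and 8 lower and 6 and 4 higher (reported 14 and 10), and the wider export genes 44 and 28 lower and 1 and 2 higher (reported 61 and 2). The scores follow age (r = 0.757 and 0.89). With library sizes alone the counts were 1 lower and 3 higher for chaperones, 1 and 5 for stress genes, 13 and 21, 9 and 22, and 31 and 18 for the wider lists. In limma on log2(FPKM + 1) and log2(FPKM + 0.1) they were 1 and 2, 2 and 5, 14 and 17, 11 and 20, and 33 and 13 in both, and with no filter 1 and 2, 2 and 5, 14 and 18, 10 and 20, and 32 and 12. Over libraries left out in turn, chaperones were lower 4 to 7 times and higher 0 to 1, and stress genes lower 3 to 5. No filter, a minimum count of 50 and RLE changed no call of the 37 genes, and DESeq2 added Calr.

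Signs turned for these genes, all with small changes. With library sizes alone, values were 0.10 (Hsp90b1), 0.0044 (Calr), 0.16 (Canx), 0.15 (Dnajb9), 0.036 (Dnajb11), 0.22 (Dnajc3), 0.1995 (Creld2), 0.0050 (Xbp1), 0.14 (Atf6), 0.198 (Sel1l) and 0.047 (Creb3l2). In limma on log2(FPKM + 1), with or without a filter, and on log2(FPKM + 0.1) they were 0.065 and 0.065 (Hsp90b1), 0.14 and 0.14 (Canx), 0.090 and 0.093 (Dnajb9), 0.0022 and 0.0021 (Dnajb11), 0.19 and 0.198 (Dnajc3), 0.13 and 0.14 (Creld2), 0.12 and 0.12 (Atf6), 0.18 and 0.19 (Sel1l) and 0.031 and 0.032 (Creb3l2). With the muscle score they were 0.014 (Canx), 0.023 (Dnajc3) and 0.086 (Creld2), and with the erythroid and neutrophil score -0.15 (Hspa5), -0.054 (Hyou1), 0.062 (Sel1l) and 0.14 (Creb3l2). Over libraries left out in turn the ranges were -0.11 to 0.098 (Hspa5), -0.17 to 0.0020 (Dnajb9), -0.10 to 0.029 (Dnajc3), -0.0077 to 0.12 (Hyou1) and -0.12 to 0.039 (Creld2). The cause was not tested beyond the shift of all genes given above.

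Labels give no pairing between same-numbered young and aged libraries, and their deviations did not all go together (correlations from -0.12 to 0.258; 2 of 6 aged libraries matched their own number best). The fit with a replicate block left out young replicate 7, which has no aged library of its number. In that fit 4 chaperones were lower and 1 higher, 4 stress genes lower and 2 higher, and all 12 export genes lower. Pdia3 and Dnajb11 were then not called (adjusted p = 0.0578 and 0.0703), Xbp1 was (-0.20, adjusted p = 0.0323), and Dnajc3 turned to 0.0039. Leaving out young replicate 7 alone, with no block, also lost the calls of Pdia3 and Dnajb11 and turned the sign of Dnajc3.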
